A study of Mus musculus with 9 samples.

Results

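The zinc-finger genes whose mouse symbols run from Zfp700 to Zfp999 were examined in RNA-seq of mouse embryonic stem cells (ESCs) that have or lack DNMT1, the enzyme that copies DNA methylation onto newly replicated strands. Members were chosen by symbol alone, and 119 of the 15074 genes analysed carried such a symbol. The cells were of the male J1 line in 3 forms: wild type (WT), Dnmt1-/- (1KO), and 1KO+1CI. The last, also Dnmt1-/-, was made from 1KO cells by adding a DNMT1 C1229S transgene, whose protein lacks enzyme activity. The transgene was driven by the CAG promoter, and the columns of that line point to a single clone. Each line was sampled as ESCs at day 0 and at days 2 and 4 of differentiation, which was started by taking away LIF, the cytokine that holds ESCs in self-renewal, and led through embryoid bodies to epiblast-like cells. All lines were grown on mouse embryonic fibroblast feeders, which were depleted by plating before differentiation. There was 1 library of polyadenylated RNA for each line and day, 9 in all, and levels are given as FPKM, fragment counts scaled for transcript length and library size.

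Most mouse genes of this number range code for C2H2 zinc-finger proteins, in which a string of fingers, each held by cysteines and histidines around a zinc ion, reads DNA. Many carry a KRAB domain in front of the fingers, which binds the co-repressor TRIM28 (KAP1). TRIM28 in turn brings in the histone H3K9 methyltransferase SETDB1 and HP1 proteins, and this machinery is known for silencing endogenous retroviruses in ESCs. KRAB zinc-finger genes arise by tandem duplication and lie in clusters of close relatives. Among the members, Zfp809 is known for silencing retroviruses that use a proline tRNA primer binding site, and Zfp819 and Zfp932 have been tied to control of retroelements.

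The level of the targeted gene followed the labels. Dnmt1 was at 74, 80.4 and 48.5 FPKM over days 0, 2 and 4 for WT, 13.7, 17.4 and 12.3 for 1KO, and 315, 129 and 158 for 1KO+1CI. The 1KO libraries were the lowest on every day, and the reads in 1KO+1CI include those of the transgene. Pou5f1, the defining marker of pluripotent cells, lay between 632 and 1008 FPKM in all 9 libraries, while 5 of the 7 pluripotent markers (Sox2, Zfp42, Esrrb, Klf4 and Tfcp2l1) fell from day 0 to day 4 and Klf4 was called higher in 1KO+1CI than in WT. All 4 formative epiblast genes rose by day 4, as did all 4 primitive streak genes, whose sum was 14.5, 74.1 and 87.1 FPKM at day 4 in the order WT, 1KO, 1KO+1CI. The sum of 6 primitive endoderm genes was 5.65, 8.21 and 11.2 FPKM at day 0 in that order, 2.74, 5.24 and 11.9 FPKM at day 2 and 6.61, 13.3 and 20.1 FPKM at day 4, with 3 of the 6 called higher in 1KO+1CI against WT. Dab2 alone was at 3.74, 8.18 and 11.6 FPKM at day 4. Gata4 was lower in 1KO than in WT on each day, at 0.937, 0.797 and 0.96 FPKM against 1.31, 1.15 and 1.56. Foxa2 was lower in 1KO at day 2, at 0.045 FPKM against 0.233. Of 6 genes of the 2-cell stage 4 were in the table, and 3 of them fell at day 2. Of 7 feeder fibroblast markers, 6 were in the table and Lum was not analysed here. At day 0 their sum was 89.3 FPKM for WT, 173.5 for 1KO and 196.4 for 1KO+1CI, and it lay between 11.1 and 25.5 FPKM in the 6 libraries of days 2 and 4. All 6 fell from day 0 to days 2 and 4 in the test used below, and none was listed at 0. The part of these markers in the results was not tested. If 1 step of the FPKM scale is 1 read, the libraries held between 20138000 and 28014000 counted reads.

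Features of the members are given here as a description. Zfp symbols are given to zinc-finger genes, so the finger and KRAB counts follow largely from the choice by symbol. Of the 119, 117 had a coding transcript in GENCODE M21 (GRCm38), the other two (Zfp783 and Zfp939) being annotated without one, and 111 of the 117 held at least 1 C2H2 finger pattern, with a median of 11 and a maximum of 23 fingers in the longest protein. A KRAB motif was found in 92 of the 117 (78.6%). The search used a fixed pattern, so a member without a hit may still hold a variant KRAB domain. By position, 63 members fell into 8 clusters of at least 5 members less than 1 Mb apart, on chromosomes 2, 4, 6, 7, 8, 13 and 17, a further 26 lay in smaller groups and 30 stood alone. The largest were a cluster of 13 members on chromosome 17 and one of 11 members on chromosome 4 (chr4:145510759-147848366). Because close relatives can share reads, each transcript was cut into windows of 100 bases, and 57 members had at least 1 window that is also found in a transcript of another gene. Zfp966 and Zfp967, neighbours on chromosome 2, had the same value in 8 of 9 libraries and cannot be told apart here.

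Promoter windows of 300 bases, from 250 before to 50 after a RefSeq start site (GRCm38.p6), were at hand for 105 members. They held a median of 10 CpG sites in the richest window of a gene, against 21 over the 11638 genes of the table with such a window. The windows below are those of 4 chromosome 4 members that were higher in the mutant lines at day 0, of their neighbour Zfp933, which passed no test between the lines, and of 3 members elsewhere that were called in both mutant lines. They are printed 5′ to 3′ on the strand of the gene, with each CpG, the site at which DNMT1 acts, in capitals. DNA methylation at these sites was not measured in the files used here.
Zfp980 (chr4:145670447-145670746, plus strand): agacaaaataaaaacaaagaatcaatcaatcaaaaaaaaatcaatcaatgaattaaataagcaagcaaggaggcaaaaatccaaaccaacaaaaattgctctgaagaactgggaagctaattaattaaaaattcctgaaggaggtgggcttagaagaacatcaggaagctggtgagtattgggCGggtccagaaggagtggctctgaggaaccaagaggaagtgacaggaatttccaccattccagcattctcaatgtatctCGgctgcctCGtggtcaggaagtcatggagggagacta
Zfp981 (chr4:146514670-146514969, plus strand): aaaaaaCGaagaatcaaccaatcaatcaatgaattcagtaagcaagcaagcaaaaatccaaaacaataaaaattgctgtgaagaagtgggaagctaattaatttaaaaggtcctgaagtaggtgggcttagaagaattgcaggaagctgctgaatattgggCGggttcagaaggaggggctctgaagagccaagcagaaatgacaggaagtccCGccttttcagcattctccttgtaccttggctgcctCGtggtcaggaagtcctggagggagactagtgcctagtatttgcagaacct
Zfp979 (chr4:147642459-147642758, minus strand): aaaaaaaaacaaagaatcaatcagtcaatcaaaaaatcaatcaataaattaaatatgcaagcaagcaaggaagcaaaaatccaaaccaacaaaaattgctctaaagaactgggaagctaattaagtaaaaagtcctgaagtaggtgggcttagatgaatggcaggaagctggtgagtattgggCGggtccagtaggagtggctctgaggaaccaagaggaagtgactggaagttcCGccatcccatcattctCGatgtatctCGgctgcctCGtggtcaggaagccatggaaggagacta
Zfp984 (chr4:147809739-147810038, minus strand): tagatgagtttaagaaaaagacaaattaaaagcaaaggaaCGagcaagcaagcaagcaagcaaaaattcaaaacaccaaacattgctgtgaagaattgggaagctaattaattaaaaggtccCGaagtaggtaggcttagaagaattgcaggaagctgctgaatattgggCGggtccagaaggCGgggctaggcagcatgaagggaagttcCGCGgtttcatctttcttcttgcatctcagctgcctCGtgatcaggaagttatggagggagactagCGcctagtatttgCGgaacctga
Zfp933 (chr4:147848369-147848668, minus strand): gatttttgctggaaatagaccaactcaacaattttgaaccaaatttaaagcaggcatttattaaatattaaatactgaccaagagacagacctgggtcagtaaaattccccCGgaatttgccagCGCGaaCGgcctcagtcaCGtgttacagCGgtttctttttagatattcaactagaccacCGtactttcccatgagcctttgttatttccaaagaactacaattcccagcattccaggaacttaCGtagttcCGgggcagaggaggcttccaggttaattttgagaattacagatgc
Zfp951 (chr5:104859978-104860277, minus strand): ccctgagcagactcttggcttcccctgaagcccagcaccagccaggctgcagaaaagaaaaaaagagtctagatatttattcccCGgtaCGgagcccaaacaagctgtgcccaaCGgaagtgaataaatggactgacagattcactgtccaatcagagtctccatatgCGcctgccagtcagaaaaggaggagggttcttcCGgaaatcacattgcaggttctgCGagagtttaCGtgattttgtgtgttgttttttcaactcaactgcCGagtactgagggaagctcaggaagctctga
Zfp866 (chr8:69774862-69775161, minus strand): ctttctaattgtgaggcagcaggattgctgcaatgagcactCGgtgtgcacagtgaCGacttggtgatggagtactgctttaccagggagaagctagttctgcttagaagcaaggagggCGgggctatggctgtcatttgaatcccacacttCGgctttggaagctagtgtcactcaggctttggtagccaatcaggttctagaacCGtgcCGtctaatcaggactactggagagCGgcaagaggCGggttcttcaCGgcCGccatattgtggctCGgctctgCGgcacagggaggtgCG
Zfp869 (chr8:69716853-69717152, minus strand): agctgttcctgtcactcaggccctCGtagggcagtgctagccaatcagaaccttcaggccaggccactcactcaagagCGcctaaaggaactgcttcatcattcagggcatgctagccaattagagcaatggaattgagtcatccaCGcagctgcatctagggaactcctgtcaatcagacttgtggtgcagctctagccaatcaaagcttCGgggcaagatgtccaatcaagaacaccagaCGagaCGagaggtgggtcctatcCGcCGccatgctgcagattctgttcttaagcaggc

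The windows of Zfp980, Zfp981 and Zfp979 held 3, 4 and 5 CpG sites, those of Zfp984 and Zfp933 held 9, that of Zfp866 13 and those of Zfp951 and Zfp869 8. The windows of the cluster were searched for stretches of at least 12 letters held by at least 6 members. A stretch of 15 letters, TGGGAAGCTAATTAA, was found in 7 of the 8 chromosome 4 members with a window (Zfp980, Zfp987, Zfp981, Zfp982, Zfp985, Zfp979 and Zfp984, not Zfp933) and, on either strand, in 12 of all 32851 promoter windows (0.0365%). The other holders were Gm13212, Rex2, Zfp534, Zfp600 and Zfp988, which is not among the genes analysed. A second stretch with a CpG in it, TATTGGGCGGGT, was held by 6 of the 8 and by 12 of all windows (0.0365%), among them those of Zfp947 and Zfp994 on chromosome 17. A further stretch, GCAAGCAAGCAA, a short repeat, was held by 6 of the 8 and by 32 of all windows (0.0974%). These stretches were chosen after the sequences were seen. Of the analysed holders of the first stretch, 11 of 11 lay above WT at day 0 in 1KO and 11 of 11 in 1KO+1CI, of the second 11 and 10 of 11, and of the repeat 12 and 13 of 17, beside 48.9% and 47.1% of all genes. These are descriptions of single libraries, and most of the 8 chromosome 4 members hold more than 1 of the stretches. The holders include the 7, 6 and 6 cluster members that the stretches were taken from, and Rex2 and Zfp600 lie in the same span. The counts thus restate the rise of the cluster and cannot link a stretch to it.

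Most members were expressed at low levels. Across the 9 libraries, 111 of 119 reached 1 FPKM in at least 1 library, 87 were at 1 FPKM or more in every library, 30 reached 10 FPKM and 5 reached 50 FPKM. The median member lay at 3.08, 4.33 and 3.44 FPKM in WT at days 0, 2 and 4, at 2.96, 3.92 and 3.11 FPKM in 1KO and at 3.37, 3.75 and 3.06 FPKM in 1KO+1CI. The sum over members was more uneven, 629 FPKM for WT, 811 for 1KO and 894 for 1KO+1CI at day 0, 958, 1073 and 1090 FPKM at day 2 and 661, 626 and 609 FPKM at day 4. At day 0 and day 2 the sum was thus higher in both mutant lines, and at day 4 it was highest in WT. The 11 members of the chromosome 4 cluster made up 155.9, 333.1 and 405.6 FPKM of it at day 0 in WT, 1KO and 1KO+1CI. At day 2 they made up 314.6, 471.3 and 493.6 FPKM. The median member was highest in WT at day 2, so the sum does not describe the members as a whole.

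Of the 10 members with the highest mean level, 6 belong to the chromosome 4 cluster. Zfp990 led with a mean of 74.3 FPKM over the 9 libraries, followed by Zfp979 (49.8), Zfp706 (42.3), Zfp981 (33.6), Zfp991 (32.1), Zfp740 (29.4), Zfp961 (27.9), Zfp710 (23.9), Zfp985 (22.1) and Zfp984 (22.1), and these means of single libraries do not separate neighbours in the order. Zfp706, a small protein with 1 finger that has been linked to the choice between self-renewal and differentiation in ESCs, lay between 38.1 and 51.7 FPKM. Zfp990 was at 48.9, 85.9 and 37.6 FPKM over days 0, 2 and 4 for WT, 75.1, 115 and 37.2 for 1KO, and 102, 125 and 42.1 for 1KO+1CI. At day 0 and day 2 both mutant lines lay above WT for Zfp990, and at day 4 the 3 lines lay within 37.2 to 42.1 FPKM.

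The first comparison sets the lines without active DNMT1 against WT, over all days. Each genotype is represented by 1 line, so loss of DNMT1 cannot be told apart from other differences between the lines. With 1 library for each line and day, limma was fitted to log2(FPKM + 1) with line and day as terms, so that a difference is tested against how far it varies over the days and not over separate cultures. Of the 119 members, 3 rose in 1KO (Zfp951, Zfp992 and Zfp991) and 2 fell (Zfp869 and Zfp866) at an adjusted p under 0.05 over all genes. Among all 15074 genes 0.71% were called higher and 1.15% lower. In 1KO+1CI against WT the same 5 were called in the same direction, with Zfp809 also higher and Zfp821 also lower, 4 and 3 members in all, beside 1.8% and 2.14% of all genes. Both comparisons use the same WT libraries, and 1KO+1CI was made from 1KO cells, so their agreement is not an independent repeat. The median member differed little from WT, the difference being -0.07 for 1KO and -0.06 for 1KO+1CI, beside 0.00 for all genes in both, and 48 and 52 of 119 members lay above 0. The calls rested on few libraries: without any single 1KO library 0 calls were left in 1KO against WT, without the WT library of day 2 1, and without any other single library 3, the WT library of day 4 apart. In 1KO+1CI against WT, 1 call (Zfp951) was left without the 1KO+1CI library of day 0 or of day 2, and 3 or 4 without any other single library but that of WT at day 4.

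Zfp951 showed the widest difference between lines. This member with 10 fingers and a KRAB motif stands alone on chromosome 5 (chr5:104813169-104860070, minus strand). It was at 0.305, 0.641 and 0.399 FPKM over days 0, 2 and 4 for WT, 3.63, 5.69 and 3.37 for 1KO, and 4.83, 6.94 and 3.15 for 1KO+1CI. Every mutant library lay above every WT library, and the lowest mutant value was 7.91 times the WT value of the same day. The difference was 1.83 ± 0.17 (SE), adjusted p = 0.00632 in 1KO and 2.00 ± 0.17 (SE), adjusted p = 0.00324 in 1KO+1CI on the log2(FPKM + 1) scale. That scale understates the change of a low gene, and the WT level at day 0 corresponds to about 13 reads. No window of Zfp951 was shared with another transcript. In 1KO against WT its adjusted p lay between 0.058 and 0.0625 without any 1 of the 1KO libraries.

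Zfp991 and Zfp992, both of the chromosome 4 cluster and with 11 fingers each, lay above WT in both mutant lines on every day. Zfp991 was at 12.8, 22.6 and 13.3 FPKM over days 0, 2 and 4 for WT, 41.5, 45.4 and 28.1 for 1KO, and 50.3, 47.7 and 26.9 for 1KO+1CI. Zfp992 was at 8.6, 14.6 and 8.65 FPKM over days 0, 2 and 4 for WT, 25.2, 28.9 and 17.8 for 1KO, and 29.6, 31 and 17.1 for 1KO+1CI. In both genes each mutant library was about as far above its WT library at day 4 as at day 2, and further above at day 0. For Zfp991 the difference was 1.21 ± 0.17 (SE), adjusted p = 0.0212 in 1KO and 1.30 ± 0.17 (SE), adjusted p = 0.0117 in 1KO+1CI. For Zfp992 it was 1.12 ± 0.15 (SE), adjusted p = 0.018 in 1KO and 1.21 ± 0.15 (SE), adjusted p = 0.01 in 1KO+1CI. Of the windows of Zfp991, 73.8% also occur in transcripts of other genes, Zfp992 among them, and of those of Zfp992 28.6%, so their reads may be divided between the pair.

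**Figure D1:**
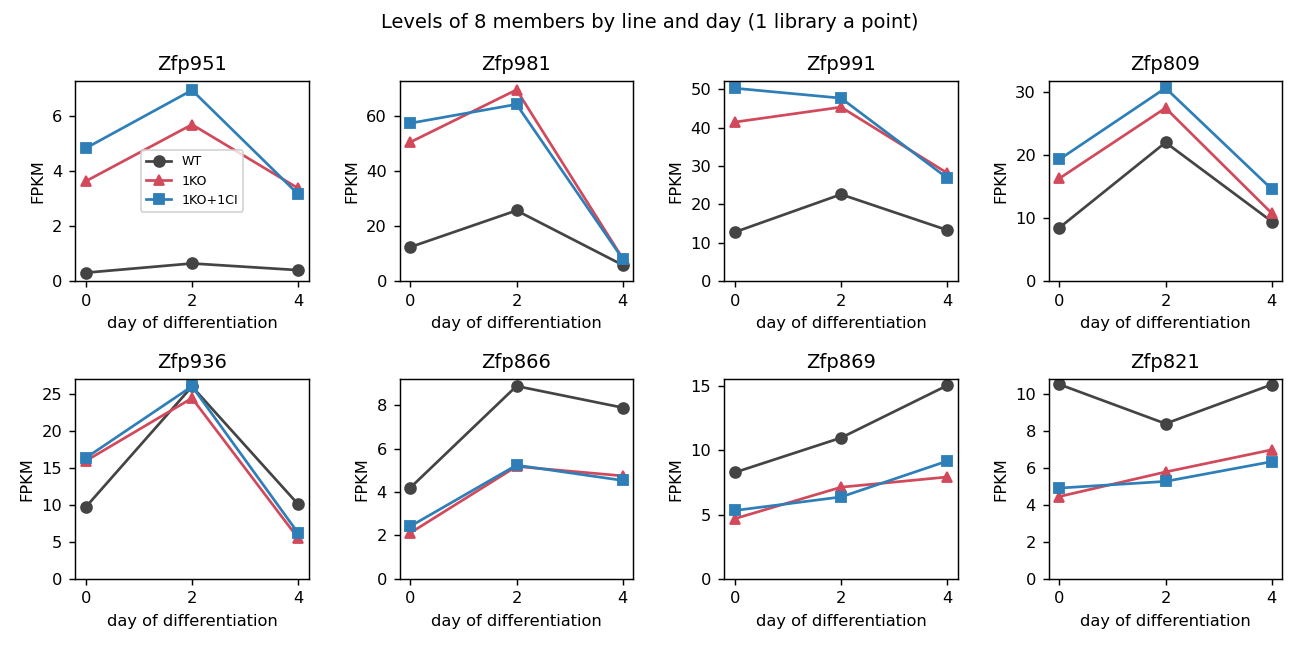
FPKM (linear axis from 0) of 8 members against the day of differentiation, 1 library a point, for WT, 1KO and 1KO+1CI. Zfp951, Zfp981, Zfp991 and Zfp809 lie above WT in both mutant lines at day 0, Zfp866, Zfp869 and Zfp821 lie below WT on all 3 days, and Zfp936 lies above WT at day 0 and below it at day 4.

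Most of the chromosome 4 cluster was higher in the mutant lines at day 0. Its 11 members all carry a KRAB motif, and 10 of them, all but Zfp933 at the end of the cluster, were higher in 1KO than in WT, by 1.54 times (Zfp990) to 4.08 times (Zfp981). The summed level of the 11 was 155.9, 333.1 and 405.6 FPKM in WT, 1KO and 1KO+1CI at day 0, 314.6, 471.3 and 493.6 FPKM at day 2 and 146.2, 164.8 and 173.7 FPKM at day 4. The gap between the sums was thus wide at day 0, narrower at day 2 and small at day 4. The primitive streak and primitive endoderm sums given above were higher in both mutant lines than in WT at day 4, and their part in this was not tested. On the log2(FPKM + 1) scale the median difference of the 11 from WT was 0.90, 0.42 and 0.06 in 1KO at days 0, 2 and 4 and 1.14, 0.54 and 0.17 in 1KO+1CI, beside medians of all genes between -0.03 and 0.02.

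Within the cluster Zfp981 differed most at day 0. It was at 12.4, 25.7 and 5.83 FPKM over days 0, 2 and 4 for WT, 50.5, 69.6 and 8.18 for 1KO, and 57.5, 64.3 and 8.02 for 1KO+1CI. At day 0 and day 2 both mutant libraries lay far above WT, and at day 4 the 3 lines lay within 5.83 to 8.18 FPKM. Zfp980 of the same cluster was at 9.82, 25 and 7.74 FPKM over days 0, 2 and 4 for WT, 21.8, 42 and 7.29 for 1KO, and 25.2, 44.4 and 8.84 for 1KO+1CI. Zfp979 was at 24.1, 58.5 and 28.6 FPKM over days 0, 2 and 4 for WT, 52.3, 75 and 29.8 for 1KO, and 63.6, 83.1 and 33.3 for 1KO+1CI. In both of these the day 0 gap had closed by day 4. Zfp933 was at 0.934, 1.9 and 1.29 FPKM over days 0, 2 and 4 for WT, 0.843, 1.69 and 1.93 for 1KO, and 1.31, 1.69 and 1.25 for 1KO+1CI, without a shared order of the lines, and had no window in common with another transcript, while the other 10 members of the cluster had between 1.63% and 77.9% of their windows in common with other transcripts. How reads with several matches were counted is not given in the sources used here, so values of single relatives are uncertain where the share is high (Zfp987 77.9%, Zfp991 73.8%, Zfp980 46.1%).

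**Figure D2:**
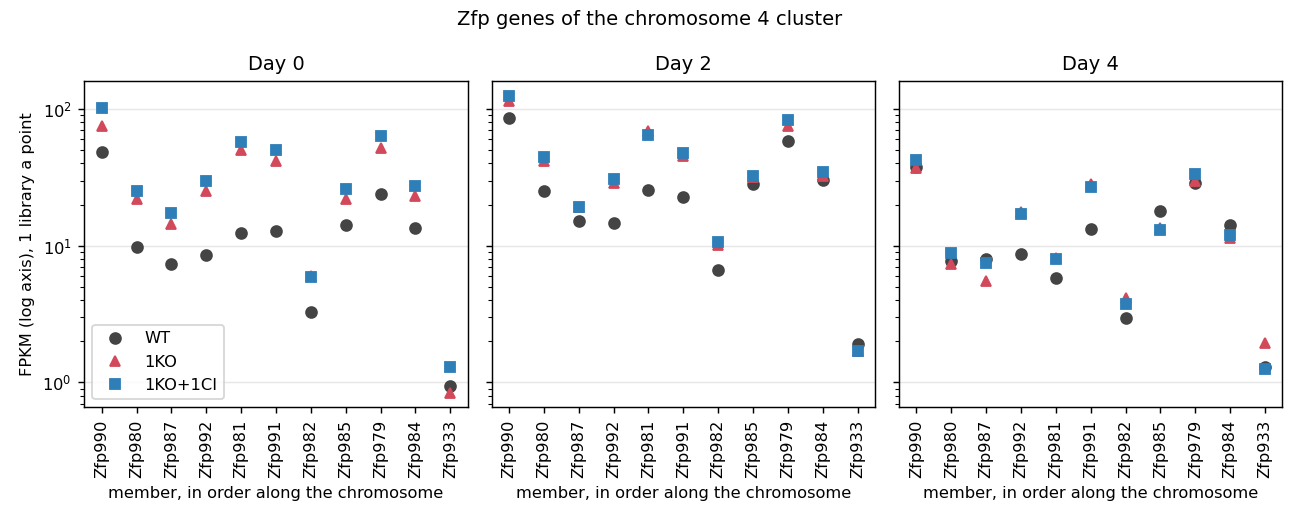
FPKM (log axis) of the 11 members of the chromosome 4 cluster in order along the chromosome, with 1 panel for each day and 1 library a point. In 10 of 11 members both mutant lines sit above WT at day 0, and at day 4 the symbols largely overlap except in Zfp991 and Zfp992.

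The dependence on day was tested in a second fit, added after the data had been seen, in which the 1KO and 1KO+1CI libraries of a day served as a pair against the WT library of that day, the lone WT library being assumed to vary like the mutants. The pair are of 2 genotypes, 1 derived from the other, and stand in for replicates. These calls are thus weaker evidence than a replicated test would give. At day 0, 14 members were called higher and 3 lower, beside 3.73% and 3.97% of all genes. The 14 comprised 10 of the 11 members of the chromosome 4 cluster together with Zfp951, Zfp809, Zfp936 and Zfp975, and the 3 were Zfp768, Zfp787 and Zfp821. At day 2, 4 members were called higher (Zfp951, Zfp981, Zfp991 and Zfp992) and none lower, beside 1.53% and 1.16% of all genes called in the same way. By value alone, 60, 51 and 49 of 119 members lay above WT in 1KO at days 0, 2 and 4. The shares of all genes were 48.9%, 50.5% and 50.7%. In 1KO+1CI, 64, 56 and 38 members did, beside 47.1%, 53.2% and 50.7% of all genes. At day 4, 3 were called higher (Zfp951, Zfp991 and Zfp992) and 1 lower (Zfp936), beside 1.83% and 1.21% of all genes. Without the 1KO+1CI library of day 0 the count at day 0 was 5, with none lower, and without the 1KO library of day 0 or either mutant library of day 2 it was 9. At day 2 it was 2 without the 1KO library and 0 without the 1KO+1CI library of that day, and at day 4 it was 1 without either mutant library of day 2 and 2 without the 1KO+1CI library of day 4. The feeder marker sum was also higher in both mutant lines at day 0, as given above.

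The difference from WT itself changed between day 0 and day 4 in 4 members, all downward, beside 0.697% of all genes, and in none upward, beside 1.08% of all genes, by limma with adjusted p. The median member differed from WT by 0.00 and -0.07 in 1KO at days 0 and 4. In 1KO+1CI it differed by 0.04 and -0.15. The medians of all genes lay between -0.03 and 0.00. For Zfp981 the change was -1.62 ± 0.18 (SE), adjusted p = 0.0152, for Zfp984 -1.11 ± 0.20 (SE), adjusted p = 0.0427 and for Zfp985 -1.13 ± 0.19 (SE), adjusted p = 0.0394. The fourth was Zfp936 on chromosome 7. It was at 9.71, 26.1 and 10.1 FPKM over days 0, 2 and 4 for WT, 16, 24.5 and 5.46 for 1KO, and 16.4, 26.1 and 6.16 for 1KO+1CI. It thus lay above WT at day 0, 0.68 ± 0.14 (SE), adjusted p = 0.0343, and below WT at day 4, -0.70 ± 0.14 (SE), adjusted p = 0.0433, and the change between them was -1.38 ± 0.20 (SE), adjusted p = 0.0296. The day 4 call of Zfp936 was lost without any 1 of the 6 mutant libraries. Without the 1KO+1CI library of day 0, or without either mutant library of day 2, 0 of these changes were called, 1 was without the 1KO library of day 0, and 2 were without either mutant library of day 4.

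The other genes within the span of the chromosome 4 cluster were higher as well. The table held 9 of them, and all 9 lay above WT in 1KO at day 0. Their median difference from WT was then 0.81 in 1KO and 1.32 in 1KO+1CI. Rex2, a further zinc-finger gene, was at 5, 22.2 and 26.2 FPKM in WT, 1KO and 1KO+1CI at day 0, and Zfp600 at 4.94, 23.1 and 27.9 FPKM in WT, 1KO and 1KO+1CI at day 0. At day 4 the median difference of the 9 was -0.03 in 1KO and 0.05 in 1KO+1CI. Several of these genes share windows with the members, Rex2 and Zfp600 with Zfp979, Zfp980 and Zfp981. In the spans of the chromosome 7 and chromosome 2 clusters, 7 of 8 and 8 of 12 other genes also lay above WT in 1KO at day 0. Their medians were 0.30 and 0.38. The counts were 6 of 15 on chromosome 13, 4 of 11 on chromosome 6, 0 of 2 on chromosome 8 and 1 of 3 in each chromosome 17 span.

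The 6 members of a cluster on chromosome 8 (chr8:69209038-69791178) included 2 that were called lower in both mutant lines, Zfp866 and Zfp869. Their summed level was 34.8, 24.7 and 26.0 FPKM in WT, 1KO and 1KO+1CI at day 0, 53.1, 35.4 and 36.8 FPKM at day 2 and 66.1, 40.6 and 37.5 FPKM at day 4. It was highest in WT on each day, and in each line it was higher at each later day. Zfp866 was at 4.2, 8.88 and 7.89 FPKM over days 0, 2 and 4 for WT, 2.11, 5.18 and 4.74 for 1KO, and 2.42, 5.24 and 4.53 for 1KO+1CI. Zfp869 was at 8.28, 11 and 15.1 FPKM over days 0, 2 and 4 for WT, 4.68, 7.13 and 7.93 for 1KO, and 5.32, 6.37 and 9.17 for 1KO+1CI. For Zfp866 the difference from WT was -0.68 ± 0.13 (SE), adjusted p = 0.0427 in 1KO and -0.65 ± 0.13 (SE), adjusted p = 0.0335 in 1KO+1CI. For Zfp869 it was -0.70 ± 0.12 (SE), adjusted p = 0.0375 in 1KO and -0.64 ± 0.12 (SE), adjusted p = 0.0332 in 1KO+1CI. Each of these 4 calls was lost when any single library was left out, with an adjusted p between 0.0548 and 0.25. The other four members did not pass, and Zfp964, under 0.5 FPKM at days 0 and 2, lay above WT in both mutant lines on those days. Zfp930, at 10.6, 16.5 and 24.1 FPKM over days 0, 2 and 4 for WT, 9.22, 9.96 and 16.1 for 1KO, and 8.86, 11 and 11.4 for 1KO+1CI, was the only member lower by over 2-fold in 1KO+1CI at day 4 on the FPKM + 1 scale, members under 1 FPKM in both libraries set aside.

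Among the other clusters, only that of chromosome 7 gave calls against WT, and only in the second fit. The chromosome 7 cluster of 8 members (chr7:41633203-43618285), which holds Zfp936 and Zfp975, had a median difference of 0.15, -0.27 and -0.23 in 1KO and of 0.42, -0.09 and -0.45 in 1KO+1CI at days 0, 2 and 4. Zfp975 was at 4.29, 8.56 and 3.73 FPKM over days 0, 2 and 4 for WT, 7.99, 8.92 and 3.21 for 1KO, and 8.57, 8.1 and 2.41 for 1KO+1CI. Like Zfp936 it was higher in the mutants at day 0, 0.81 ± 0.20 (SE), adjusted p = 0.0488, and in its case the fall of the difference to day 4 did not pass, -1.13 ± 0.28 (SE), adjusted p = 0.0909. In the cluster of 13 on chromosome 17, 7, 6 and 10 members lay above WT in 1KO at days 0, 2 and 4, and no member was called between the lines. The 7 members on chromosome 2 and the 6 on chromosome 13 were low, with summed levels between 6.29 and 13.1 FPKM and between 9.98 and 18.2 FPKM in the 9 libraries. The 6 members of the chromosome 6 cluster lay within -0.37 and 0.61 of WT in all 6 differences. The KRAB pattern searched was found in none of them, and Zfp783 had no coding transcript to search.

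**Figure D3:**
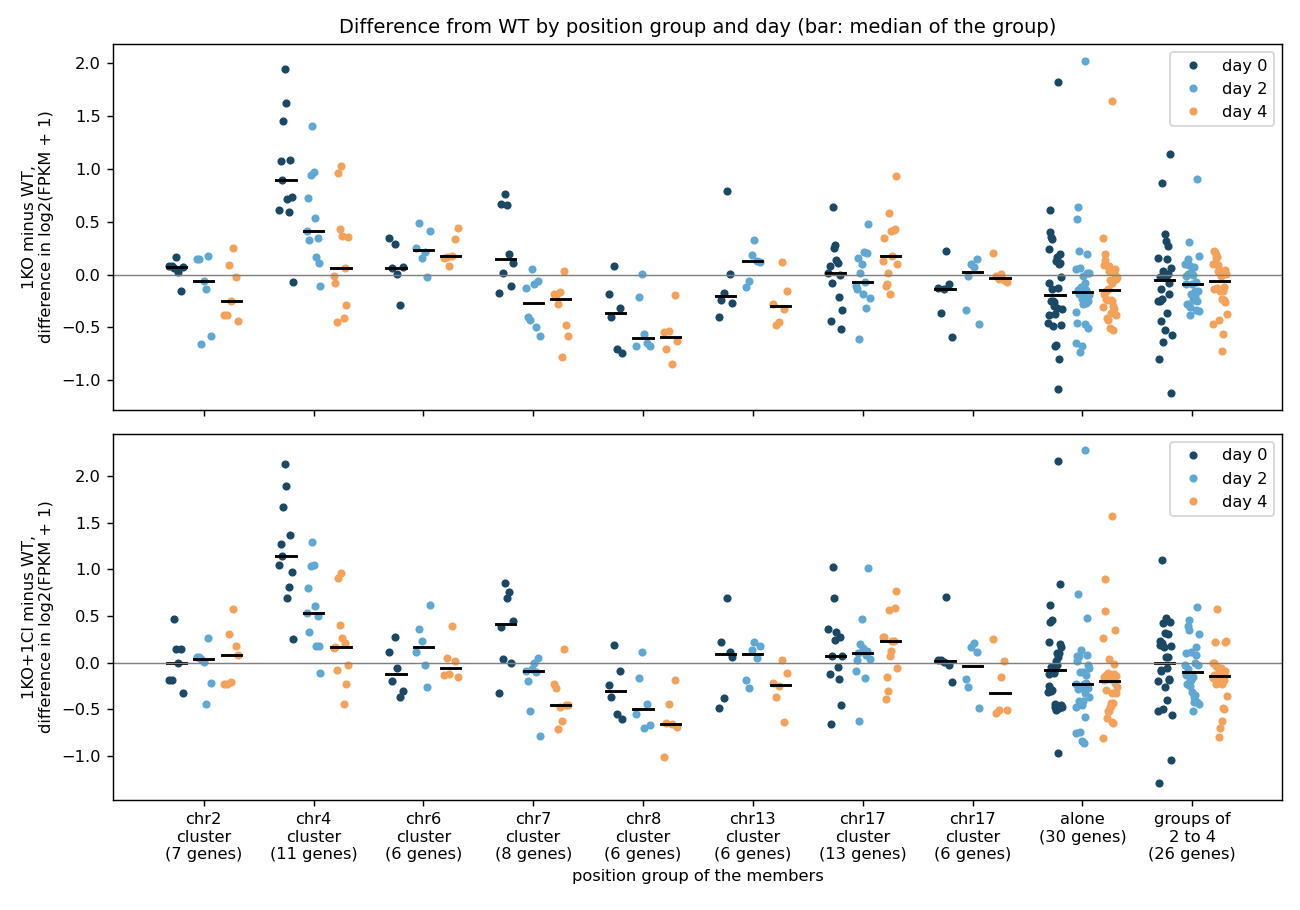
Difference in log2(FPKM + 1) from the WT library of the same day, for 1KO (top) and 1KO+1CI (bottom), with 1 point a member, a bar at the median of each position group and colours for days 0, 2 and 4. The chromosome 4 cluster lies above 0 at day 0 with medians of 0.90 and 1.14 and nears 0 by day 4, and the chromosome 8 cluster lies below 0 with medians between -0.65 and -0.30.

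Zfp809, the retrovirus silencer, was at 8.44, 21.9 and 9.43 FPKM over days 0, 2 and 4 for WT, 16.2, 27.4 and 10.7 for 1KO, and 19.3, 30.6 and 14.6 for 1KO+1CI. Its 3 values were higher in 1KO+1CI than in 1KO and higher in 1KO than in WT on every day, and all 3 lines peaked at day 2. The difference from WT was 0.45 ± 0.15 (SE), adjusted p = 0.215 in 1KO, which did not pass, and 0.71 ± 0.15 (SE), adjusted p = 0.0436 in 1KO+1CI. The latter was lost without any 1 of the libraries except that of WT at day 4. No window of Zfp809 was shared with another transcript. Zfp821, a gene with 3 fingers and a CpG-rich promoter of up to 42 CpG sites, was at 10.5, 8.41 and 10.5 FPKM over days 0, 2 and 4 for WT, 4.46, 5.79 and 6.99 for 1KO, and 4.92, 5.28 and 6.35 for 1KO+1CI. The difference was -0.69 ± 0.15 (SE), adjusted p = 0.0676 in 1KO, which did not pass, and -0.73 ± 0.15 (SE), adjusted p = 0.0401 in 1KO+1CI. In the second fit the day 0 difference was -1.02 ± 0.17 (SE), adjusted p = 0.0217.

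Set library against library, members past a 2-fold difference on the FPKM + 1 scale were few, counting those with a level of 1 FPKM or more in either library. These counts are descriptions without a test. In 1KO against WT, 7 were higher and 2 lower at day 0, 2 and 0 at day 2, and 2 and 0 at day 4, beside 2.69% and 1.87%, 1.97% and 0.819%, and 2.05% and 0.726% of the genes compared. In 1KO+1CI against WT, 10 were higher and 2 lower at day 0, 5 and 0 at day 2, and 1 and 1 at day 4, beside 3.05% and 2.36%, 2.79% and 1.54%, and 3.68% and 1.25%. The members furthest up were Zfp981, Zfp951 and Zfp991 at days 0 and 2 in both lines, and Zfp951, Zfp991 and Zfp992 at day 4. Furthest down at day 0 were Zfp768, Zfp821 and Zfp787 in both lines.

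The genes furthest down changed with the day. Zfp768 was at 4.26 FPKM for WT, 1.41 for 1KO and 1.54 for 1KO+1CI at day 0, and Zfp787 at 6.24 FPKM for WT, 3.15 for 1KO and 1.96 for 1KO+1CI. At day 2, Zfp867 (5.25 FPKM for WT, 2.76 for 1KO and 2.74 for 1KO+1CI), Zfp930 and Zfp866 were furthest down in 1KO, and Zfp791 (1.7 FPKM for WT, 1.39 for 1KO and 0.49 for 1KO+1CI), Zfp827 and Zfp819 in 1KO+1CI. At day 4 they were Zfp869, Zfp936 and Zfp882 (2.77 FPKM for WT, 1.28 for 1KO and 1.44 for 1KO+1CI) in 1KO, and Zfp930, Zfp958 (6.65 FPKM for WT, 5.19 for 1KO and 3.38 for 1KO+1CI) and Zfp940 (7.77 FPKM for WT, 5.53 for 1KO and 4.05 for 1KO+1CI) in 1KO+1CI. No member was among the 3 furthest down on all 3 days in either line.

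The comparison of 1KO+1CI with 1KO sets a line with the inactive protein beside its parent line, again with 1 line for each genotype. No member was called in either direction by limma, beside 0.00663% of all genes called higher, Dnmt1 itself, and 0.0% lower. At an unadjusted p under 0.05 in the same fit, 1 member was higher (Zfp973) and none lower. In both directions this was a smaller share than among all genes at the same unadjusted threshold. The median member difference was 0.01, and 62 of 119 lay above 0. No member passed 2-fold on the FPKM + 1 scale at day 0, 2 or 4, where 0.219% and 0.292%, 0.188% and 0.229%, and 0.763% and 0.357% of the genes compared were higher and lower. For the members called against WT the differences were 0.17 ± 0.17 (SE) for Zfp951, 0.09 ± 0.17 for Zfp991, 0.09 ± 0.15 for Zfp992, 0.26 ± 0.15 for Zfp809, 0.03 ± 0.13 for Zfp866, 0.07 ± 0.12 for Zfp869 and -0.04 ± 0.15 for Zfp821. These standard errors leave room for modest differences in either direction.

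The largest fitted differences between these lines were small, and none passed. Zfp750, known for its role in epidermal differentiation, differed by 0.44 ± 0.20 (SE), adjusted p = 1, Zfp973 by 0.44 ± 0.15 (SE), adjusted p = 1 and Zfp703 by 0.43 ± 0.22 (SE), adjusted p = 1. Lower in value were Zfp934, -0.33 ± 0.15 (SE), adjusted p = 1, Zfp771, -0.28 ± 0.20 (SE), adjusted p = 1, and Zfp775, -0.26 ± 0.20 (SE), adjusted p = 1. In single libraries, ranked on the log2(FPKM + 1) scale and given here as ratios of FPKM, the extremes were Zfp750 at day 0 (1.96 times the 1KO level), Zfp946 at day 2 (1.62 times) and Zfp703 at day 4 (2.22 times), and downward Zfp771 at day 0 (0.592 times), Zfp791 at day 2 (0.353 times) and Zfp825 at day 4 (0.618 times). The next furthest were Zfp715 and Zfp935 up and Zfp787 and Zfp706 down at day 0, Zfp703 and Zfp944 up and Zfp846 and Zfp934 down at day 2, and Zfp931 and Zfp809 up and Zfp775 and Zfp808 down at day 4.

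More members were called between days than between lines. From day 0 to day 2, 26 of 119 members rose and 2 fell, beside 7.34% and 8.11% of all genes. The median member difference was 0.32 on the log2(FPKM + 1) scale, beside 0.01 for all genes, and 103 of 119 lay above 0. Day 2 was the highest of the 3 days for 75 members in WT, 73 members in 1KO and 75 members in 1KO+1CI, or 63.0%, 61.3% and 63.0%, where 33.3%, 31.2% and 32.2% of all genes peaked. In 46 members (38.7%) day 2 was the highest in all 3 lines, beside 14.8% of all genes. Zinc-finger genes of lower number, Zfp1 to Zfp699, gave 48 higher and 4 lower of 228, with a median of 0.24, and a difference between the lists was not tested. The feeder markers fell over the same interval, as given above, and their part in this result was not tested.

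The 10 largest rises at day 2 among called members came from several position groups. Zfp980 rose by 0.99 ± 0.21 (SE), adjusted p = 0.0211. Zfp961 of chromosome 8, a neighbour of Zfp709 and Zfp882, was at 17.8, 43 and 27.3 FPKM over days 0, 2 and 4 for WT, 21.6, 38.5 and 18.2 for 1KO, and 22.2, 42.8 and 19.3 for 1KO+1CI, and rose by 0.98 ± 0.16 (SE), adjusted p = 0.008. Its day 2 level lay above the day 0 level in each line. Zfp866 rose by 0.93 ± 0.13 (SE), adjusted p = 0.00459, and Zfp809 by 0.88 ± 0.15 (SE), adjusted p = 0.0103. The others were Zfp873 (0.79), Zfp760 (0.78), Zfp771 (0.78), Zfp977 (0.78), Zfp747 (0.76) and Zfp770 (0.74), with adjusted p between 0.00946 and 0.042. By position, the clusters on chromosome 2 (Zfp970, Zfp971 and Zfp931) and chromosome 4 (Zfp980, Zfp982 and Zfp990) and the cluster of 13 on chromosome 17 (Zfp760, Zfp945 and Zfp994) gave 3 of the rises each. The 28 calls fell to 12 without the 1KO library of day 0, 1 without that of day 2, 5 without the 1KO+1CI library of day 0, 4 without that of day 2 and 17 without the WT library of day 2.

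The 2 falls at day 2 were Zfp710 and Zfp703, and Zfp819 followed without passing (-0.48 ± 0.22 (SE), adjusted p = 0.181). Zfp710 was at 45.7, 28.1 and 10.6 FPKM over days 0, 2 and 4 for WT, 35.1, 23 and 10.2 for 1KO, and 32.5, 20.9 and 9.26 for 1KO+1CI. It was lower at each later day in each line, with a difference of -0.63 ± 0.10 (SE), adjusted p = 0.00772 at day 2 and of -1.80 ± 0.10 (SE), adjusted p = 0.000134 at day 4. Zfp703, a co-repressor known from breast epithelium, was at 1.67, 1.24 and 1.11 FPKM over days 0, 2 and 4 for WT, 3.08, 0.632 and 1.32 for 1KO, and 3.12, 1.35 and 2.94 for 1KO+1CI, and its fall was -0.79 ± 0.22 (SE), adjusted p = 0.0447. These levels lie near 1 FPKM, where few reads carry the value.

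**Figure D4:**
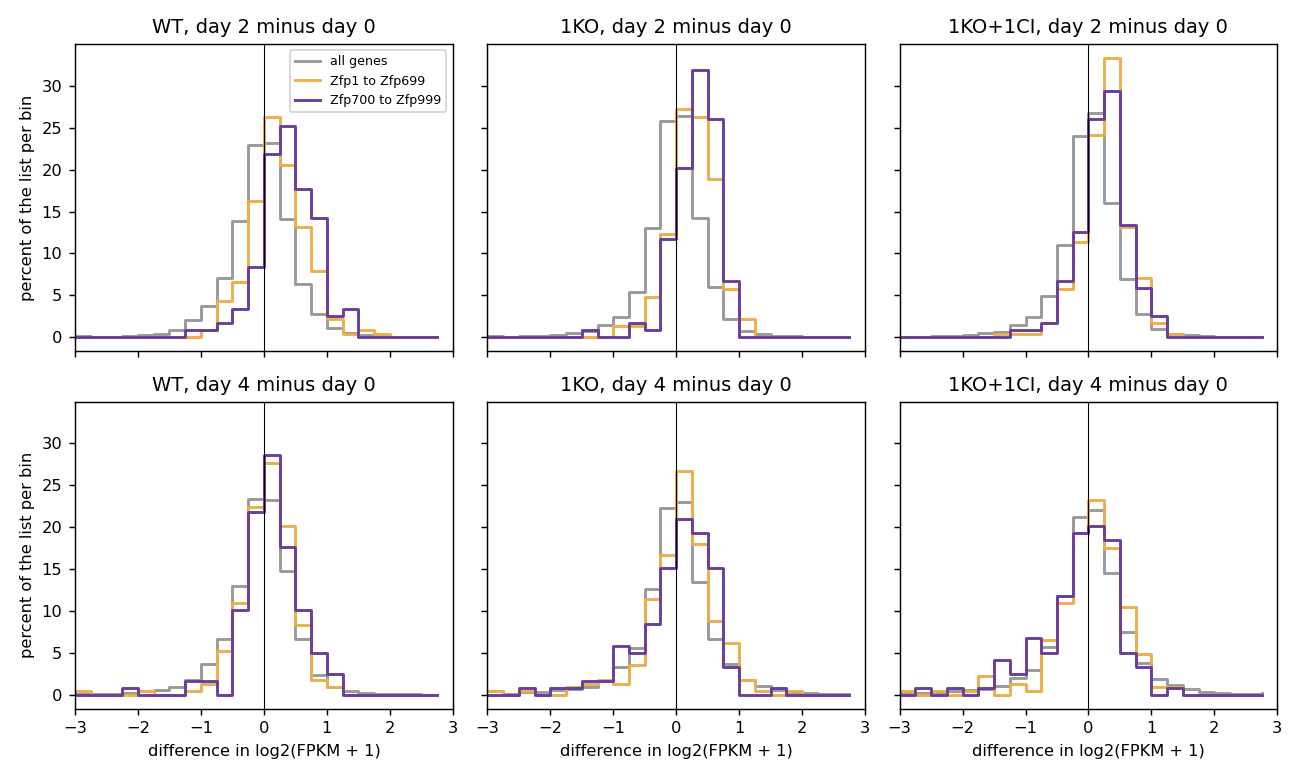
Distribution of the difference in log2(FPKM + 1) from day 0, as percent of each list in bins of 0.25, for day 2 (top) and day 4 (bottom) in WT, 1KO and 1KO+1CI, over the 119 members, 228 zinc-finger genes of lower number and all 15074 genes. At day 2 the members are shifted to the right of all genes in each line, with medians of 0.36, 0.35 and 0.26, and at day 4 the medians are 0.10, 0.15 and -0.01.

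At day 4 rises and falls were nearly equal in number. From day 0 to day 4, 11 members rose and 12 fell, beside 11.3% and 12.3% of all genes, and the median member difference was 0.10, beside 0.01 for all genes. The falls were led by Zfp981, -2.05 ± 0.29 (SE), adjusted p = 0.00271, and Zfp710, and Zfp980, Zfp990 and Zfp984 of the chromosome 4 cluster and Zfp975 and Zfp936 of the chromosome 7 cluster were among them. The calls of Zfp936 and Zfp984 average over lines of which WT did not fall, and each was kept in 2 of 9 fits without 1 library. Zfp819 was at 7.63, 8.62 and 2.89 FPKM over days 0, 2 and 4 for WT, 8.32, 5.42 and 1.6 for 1KO, and 10.8, 4.6 and 1.84 for 1KO+1CI. It fell in every line, -1.68 ± 0.22 (SE), adjusted p = 0.0023. Zfp750, Zfp704 and Zfp808 fell by 0.96, 0.82 and 0.80 on the log2(FPKM + 1) scale, and Zfp740 completed the 12. The 23 calls fell to 9, 15 and 11 without the 1KO library of day 0, 2 or 4, and to 11 and 13 without the 1KO+1CI library of day 0 or 4.

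The rises at day 4 had 5 of 11 members from the chromosome 8 cluster, Zfp866, Zfp930, Zfp869, Zfp964 and Zfp963, with differences of 0.78, 0.73, 0.71, 0.59 and 0.53. Zfp946 of chromosome 17 rose most, 1.08 ± 0.29 (SE), adjusted p = 0.0332. It was at 5.22, 1.69 and 6.11 FPKM over days 0, 2 and 4 for WT, 3.35, 2.75 and 12.6 for 1KO, and 3.54, 4.45 and 11.1 for 1KO+1CI. At day 4 it was higher in both mutant lines than in WT, 2.05 times in 1KO and 1.82 times in 1KO+1CI, after a dip at day 2 in WT and 1KO. The others were Zfp770 (0.86), Zfp760 (0.78), Zfp711 (0.73), Zfp867 (0.54) and Zfp747 (0.49). Zfp711, an X-linked gene whose human counterpart is mutated in intellectual disability, was at 0.179, 0.512 and 1.22 FPKM over days 0, 2 and 4 for WT, 0.264, 0.528 and 0.775 for 1KO, and 0.27, 0.598 and 1.2 for 1KO+1CI.

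Of the 12 members with a known role, Zfp992 was called higher in 1KO and Zfp992 and Zfp809 in 1KO+1CI, and the rest did not pass between lines in the first fit. In the second fit Zfp982 was also called higher at day 0, 0.70 ± 0.17 (SE), adjusted p = 0.0486, a call kept in 2 of 6 fits without 1 mutant library. Zfp932 was at 7.29, 10.8 and 8.2 FPKM over days 0, 2 and 4 for WT, 6.58, 9.66 and 6.47 for 1KO, and 7.64, 9.78 and 5.8 for 1KO+1CI. Zfp708, known for binding a retrotransposon family, was at 1.5, 2.37 and 2.01 FPKM over days 0, 2 and 4 for WT, 1.12, 2.23 and 1.17 for 1KO, and 1.91, 1.79 and 1.34 for 1KO+1CI, and every window of it is also found in another transcript. Zfp827, whose human counterpart has been found at telomeres, was at 3.03, 2.89 and 2.3 FPKM over days 0, 2 and 4 for WT, 1.52, 1.43 and 1.33 for 1KO, and 1.97, 1.17 and 1.37 for 1KO+1CI. It was higher in WT than in either mutant line on each day, with -0.62 ± 0.14 (SE), adjusted p = 0.0723 in 1KO and -0.59 ± 0.14 (SE), adjusted p = 0.0598 in 1KO+1CI. Zfp830, needed in the early embryo, rose at day 2 by 0.55 ± 0.14 (SE), adjusted p = 0.0346, and Zfp982 by 0.74 ± 0.14 (SE), adjusted p = 0.0136. The fitted differences of Zfp982 from WT were 0.54 ± 0.14 (SE), adjusted p = 0.112 in 1KO and 0.52 ± 0.14 (SE), adjusted p = 0.082 in 1KO+1CI.

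The co-repressor genes through which KRAB proteins work were listed beside the members. Of 19 listed symbols 18 were in the table (Fam208a is an older name of Tasor). Between 1KO and WT 1 of 18 was called, Dnmt1. Between 1KO+1CI and WT 2 were called higher, Dnmt1 and Atf7ip, a partner of SETDB1 (0.52 ± 0.10 (SE), adjusted p = 0.0311). Trim28, the KRAB partner, was at 453, 512 and 414 FPKM over days 0, 2 and 4 for WT, 679, 548 and 384 for 1KO, and 588, 511 and 428 for 1KO+1CI. It did not pass between lines and fell from day 0 to day 4, -0.47 ± 0.14 (SE), adjusted p = 0.0418. Setdb1 was between 23.4 and 34.2 FPKM in all 9 libraries. At day 2, 6 of 18 rose (Tasor, Atf7ip, Smarcad1, Pphln1, Dnmt3a and Dnmt3b) and 1 fell (Cbx3), and at day 4, 3 rose (Pphln1, Dnmt3b and Hdac1) and 3 fell (Morc3, Trim28 and Uhrf1).

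Sequence features were set beside the levels as a description. The 92 members with a KRAB motif had a median day 2 difference of 0.40 and 23 of them rose, and the 25 without had a median of 0.08 with 3 rises. The 5 calls in 1KO against WT were all among the 92, as were 14 of the 17 calls of the second fit at day 0, the other 3 being Zfp768, Zfp787 and Zfp821. The 92 make up 78.6% of the 117 members with a coding transcript, so these counts lie near the share of such members. Of the 14, 10 are relatives in the chromosome 4 cluster. The 17 members with at most 5 CpG sites in the promoter window had a median difference of 0.07 in 1KO and 0.14 in 1KO+1CI at day 0, the 54 with 6 to 15 sites -0.12 and 0.02, and the 34 with 16 or more 0.02 and -0.02. The medians of these groups thus lay close together and near 0. The 57 members that share windows with other genes had a median of 0.08 in 1KO at day 0 and the 62 without shared windows -0.14. A difference between these groups was not tested.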

How the data were processed

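RNA-seq of polyadenylated RNA was analysed in 9 libraries, 1 for each of 3 lines at each of 3 days. Per the study's methods, paired reads of 150 bases were trimmed with Trim Galore, aligned to mm10 with HISAT2, handled with SAMtools and quantified with HOMER, and the authors deposited the FPKM values used here. Not given in the sources used here were tool versions, the annotation, strand use and the handling of reads with several matches. The table held 15095 entries, of which 21 whose names had been turned into dates or numbers were left out.

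Levels were taken as log2(FPKM + 1), a scale that understates changes of low genes, and limma 3.58.1 in R 4.3.3 was fitted with a variance trend, with line and day as terms over all 9 libraries and 4 residual degrees of freedom. The p-values were adjusted by the Benjamini-Hochberg method over 15074 genes, 0.05 being the threshold, and the test was tried on simulated data with known changes. No culture was replicated, so a p-value measures how steady a difference was over days or lines. A second fit, added after the data were seen, took the 1KO and 1KO+1CI libraries of a day together, with 3 residual degrees of freedom. Comparisons of single libraries at 2-fold are descriptions.

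Genes named are the 10 with the highest mean level, up to 10 called in each direction of each contrast (the 3 largest, given as not passing, where fewer than 3 were called), the 3 furthest up and down in each pair of libraries, 12 with a known role, and those on marker and co-repressor lists. The members and lists were chosen with earlier results of these data known. A KRAB motif and C2H2 fingers were searched in 316 translated coding transcripts with Python 3.11.15 and Biopython 1.88, and promoters come from RefSeq. The KRAB pattern was YxxVMxE or DVxxxFxxEEW (also N for D), x being any residue. The column named CI6 was taken as 1KO+1CI, the line that carries the inactive enzyme. Alternatives were another pseudocount, a minimum level, 2 other scalings, no variance trend, only the lines or days compared, and leaving out libraries.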

Additional observations from a re-analysis of the deposited data

Results flagged for a closer look

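The difference between the Dnmt1-/- lines and WT changed between day 0 and day 4 in 4 members at an adjusted p under 0.05 in the second limma fit, in which 1KO and 1KO+1CI served as a pair. The change in log2(FPKM + 1) was -1.622 for Zfp981, -1.128 for Zfp985 and -1.113 for Zfp984, all of the chromosome 4 cluster, and -1.382 for Zfp936 of the chromosome 7 cluster. That fit was added after the data were seen and has 1 WT library a day. Of 6 fits that each left out 1 mutant library, the call was kept in 3 for Zfp981, 2 for Zfp936, and 0 for Zfp984 and Zfp985. In all 4 the mutants lay above WT at day 0. At day 4 they were still above it in Zfp981 and below it in Zfp936. For Zfp984 and Zfp985 the day 0 difference was 0.7385 to 0.9698 and 0.5902 to 0.8133 over the alternative settings. The fall exceeded it in both, so the mean of the mutants lay below WT at day 4. The feeder marker sum also differed between the lines at day 0, at 89.3, 173.5 and 196.4 FPKM for WT, 1KO and 1KO+1CI, and at day 4 lay between 13.0 and 24.7 FPKM. Its part in these changes was not tested. The primitive streak sum at day 4 was 14.5, 74.1 and 87.1 FPKM in the same order, and its part was not tested either.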

How the results depend on the processing

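With only the lines or days compared in the fit, which leaves fewer libraries, 1 member was called in 1KO against WT (5 with all libraries), 1 in 1KO+1CI against WT (7) and 14 between day 4 and day 0 (23). With libraries scaled to a common FPKM sum, 2 members changed their line difference between day 0 and day 4 (4 as deposited), and 38 rose and 1 fell at day 2. With a pseudocount of 0.1 the median day 2 difference was 0.4738, and the members past 2-fold were 4 in 1KO against WT at day 2 and 5 at day 4, 5 in 1KO+1CI against WT at day 4, and 1 in 1KO+1CI against 1KO at day 2 and 1 at day 4; a smaller pseudocount widens differences of low genes by construction.

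Leaving out 1 library, or all 3 of a day or line, gave 0 to 5 calls in 1KO against WT, 0 to 9 in 1KO+1CI against WT, 0 to 0 in 1KO+1CI against 1KO, 0 to 38 at day 2 and 2 to 38 at day 4. The median difference ranged from -0.1135 to -0.01779 in 1KO against WT, -0.1239 to 0.003813 in 1KO+1CI against WT, -0.03786 to 0.0782 in 1KO+1CI against 1KO, 0.3021 to 0.4036 at day 2 and 0.06487 to 0.1154 at day 4. In the second fit the calls ranged from 5 to 17 at day 0, 0 to 5 at day 2, 1 to 4 at day 4 and 0 to 2 for the change between day 0 and day 4. For single genes called in the main fits, 447 of the other settings kept the call and 47 lost it, 457 of the settings with libraries left out kept it and 473 lost it, and none turned the direction. The cause of lost calls was not tested beyond the smaller number of libraries. Line differences were already taken within days, since day is a term of the fit, and no further block was possible because the labels give no replicate numbers. Members under 1 FPKM rest on few reads, and members with shared windows may exchange reads with relatives.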
